A study of Mus musculus with 12 samples.

Results

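Wild type mouse footpad skin at embryonic day E15.5 was compared with wild type footpad skin at E16.5, using 4 of the 12 arrays of the series: the 2 arrays labelled wild type at each of these days. The series as a whole holds 6 groups of 2 arrays, formed by genotype (wild type, or skin-specific beta-catenin knockout) and by embryonic age, which was E15.5, E16.5 or E17.5. All embryos are given as strain C57BL/6, and all RNA came from frozen footpad skin. On all arrays footpad RNA carried the dye Cy3, and a shared reference RNA carried Cy5. That reference was RNA of mouse cell lines mixed with RNA of 129ES cells, and dyes were never swapped. The labels do not say how many embryos gave 1 sample, of which sex, or whether the arrays of a group came from separate litters, and they name no Cre driver for the knockout. The p-values below therefore measure the spread between these arrays, which may be technical. Each day was hybridised on its own slide. The stage and the slide cannot be told apart, and values of the same reference RNA on both slides are given beside those of the footpads.

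The footpads are where the mouse forms eccrine sweat glands, which begin before birth as buds of the basal epidermis growing into the dermis. The budding depends on signals between epidermis and mesenchyme, among them the Wnt pathway, whose transcriptional effector is beta-catenin. During the same days the embryonic epidermis adds layers and prepares its cornified barrier. Whole footpad skin also holds dermis, vessels, nerve and muscle, so a lower value may reflect fewer cells of a type or less RNA per cell, which bulk RNA does not tell apart.

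The array files list each probe of 60 bases by a code from the manufacturer and by its sequence, with no gene symbol or position. A gene was attached where the 5′ end of a probe was identical, over at least 20 bases, to the first bases after a transcription start annotated by RefSeq (GRCm38.p6) for exactly 1 gene. This tied 141 of 42006 probes (0.336%) to 140 genes, and 13 more probes fitted several genes. Because the probes tied to a gene sit at the very 5′ end of their transcripts, these genes are a small sample set by probe position and not by function. Of 676 genes in 24 lists for sweat gland, Wnt, Eda, Shh, epidermal and cell type markers, 1 was tied to a probe: Retn, the hormone resistin. Retn was not well above background on any of the 4 wild type arrays. The lists, the tissue label and the targeted gene were therefore not analysed here.

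The sequences through which the 12 genes described in detail were recognised are printed here, since the gene names rest on them. They are the first 30 bases of each probe, 5′ to 3′, with the bases identical to the RefSeq start window in capitals. The capitals of Taldo1 lie at chr7:141392175-141392204, of Fau at chr19:6057955-6057984, of Cope at chr8:70302791-70302816 and of H2ac18 at chr3:96245512-96245541, all on the plus strand. Those of Gstp1 at chr19:4037882-4037911 and of Mif at chr10:75860247-75860276 lie on the minus strand. Among the genes that were lower at E16.5, H4c8 at chr13:23531068-23531093, Sec61b at chr4:47474670-47474699 and Rps27l at chr9:66946093-66946122 lie on the plus strand. H4c3 at chr13:23698417-23698446, Snrpf at chr10:93589619-93589648 and Gm32950 at chr3:28805305-28805334 lie on the minus strand. All 12 stretches fall within the first 50 bases after an annotated start (GRCm38.p6, 1-based), and the rest of each probe could not be checked here.
Taldo1: GTGGGTTAGCACGCACCGGCTACCGCCTCA
Fau: TTCTTGACTCCATCTTCGCGGTAGCAGCAG
Cope: TTAGAGGTGCGGTGACATGGCTCCTCcggt
Gstp1: TCTGAGTACCCCTCTGTCTACGCAGCACTG
Mif: GCCGGCTTGGGGCGGTACTGAGCTGGGTCA
H2ac18: AAAGAGTGAGGCGTCGGCGCCGGAGTACCG
H4c8: GCCTGTGCCTTCCACTCTGTTGAGGTtttt
H4c3: TCTGGACGTGGTAAGGGTGGTAAAGGCCTT
Sec61b: ATCTACGAGAGTTCTGAGTGCTCGGCAACT
Rps27l: TCCCGGAAGTTGCTGAGGGGCGCTCGAAAG
Snrpf: TCTCTTAGCGCGGGTCGCTTGGTTGTAGCG
Gm32950: TCGAGTGGGAAGCCGGAGCCGACTGATTCT

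Values are log2 ratios of footpad over reference, so 1 unit is a 2-fold difference and a positive value means a brighter footpad channel. Each difference below is E16.5 minus E15.5, called the step, with its standard error from limma. A probe was called at a Benjamini-Hochberg adjusted p under 0.05 over all 40221 probes tested. Between E15.5 and E16.5, 12596 probes (31.3%) were called, of which 6271 were higher (15.6% of those tested) and 6325 lower (15.7%) at E16.5. The median called rise was 1.74-fold and the median called fall 1.89-fold. At least 2-fold changes were called for 1982 probes that rose and 2658 that fell, and at least 4-fold changes for 148 and 146. The median absolute step over all tested probes was 0.42, against a median absolute difference of 0.19 between the E15.5 arrays and 0.20 between the E16.5 arrays. The arrays of a stage shared a slide while the step lies between slides, so these values do not separate stage from slide.

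The number of calls depended on single arrays and on the samples fitted. Without E15.5 replicate 2 the count was 6830 and without E16.5 replicate 1 it was 7534, while leaving out E15.5 replicate 1 gave 10025 and E16.5 replicate 2 gave 10220. Fitted on the 4 wild type arrays alone, with no spread borrowed from the knockout and E17.5 arrays, 6454 probes were called, of which 2706 were higher and 3748 lower. E15.5 replicate 1 stood nearer to the E16.5 arrays than replicate 2 did: across probes its Pearson r with them was 0.912 and 0.919, against 0.8912 and 0.8999 for replicate 2. It also had Cy3 well above background at 65.3% of probes, between the 59.4% of E15.5 replicate 2 and the 69.2% and 69.6% of the E16.5 arrays.

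**Figure D1:**
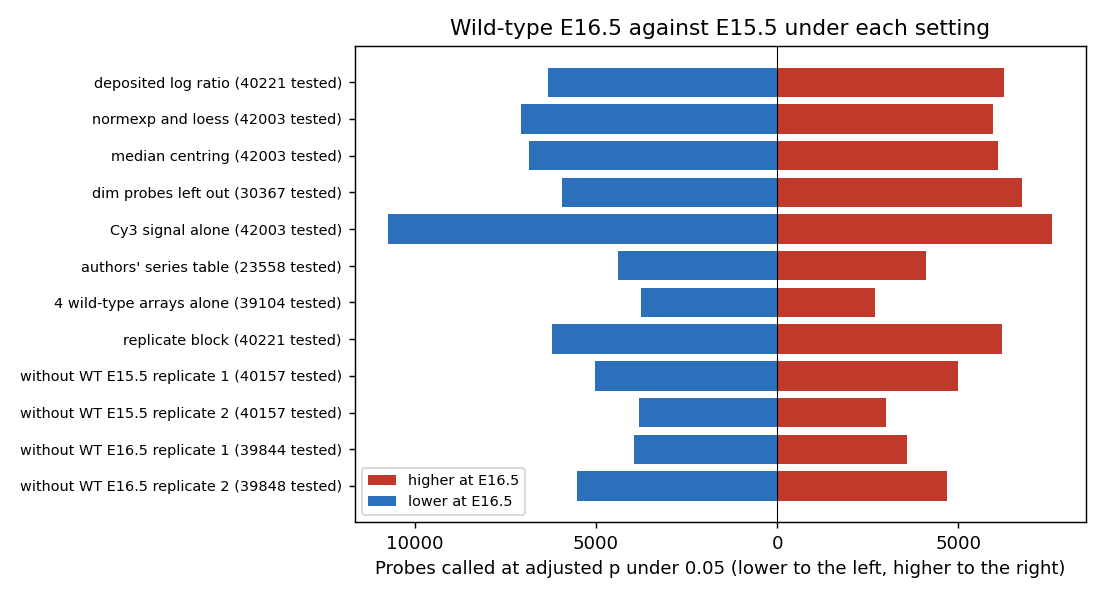
Number of probes called at adjusted p under 0.05 between wild type E15.5 and E16.5, lower at E16.5 to the left and higher to the right, under the deposited log ratio and each alternative; the number tested stands beside each setting. The shortest bars are those of the 4 wild type arrays alone (6454) and of the fit without E15.5 replicate 2 (6830).

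The reference RNA, identical by design on both slides, also differed between them. In Cy5, 4806 of 42003 probes (11.4%) were called between the wild type arrays of E15.5 and E16.5, and 653 of the 28033 probes with Cy5 well above background on all 12 arrays (2.33%). In the footpad channel, 1554 probes were below the well-above-background limit on both E15.5 arrays and above it on both E16.5 arrays, and 33 showed the opposite. In the reference channel of the same arrays these numbers were 2693 and 0. The excess of probes that first became detectable at E16.5 was thus present in the reference as well, and it is not given here as a footpad result. Of the 1554, 467 were called higher by their ratio and 4 lower, while of the 33, 26 were called lower and 0 higher. Over all tested probes 15.6% were called higher and 15.7% lower. The Cy3 limit that picked these probes favours these directions, so the counts are a description and not a test.

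Among the 23904 tested probes well above background in both channels on all 4 arrays, 4896 were called higher and 5018 lower. Fitted on these probes alone, 6031 were called higher and 5962 lower (50.2% called). Over all tested probes the Pearson r between the ratio step and the reference step was -0.14, and the SD of the steps was 0.69 in the ratio and 0.46 in the reference. Probes not well above background entered these values, so they do not describe the measured probes alone. With Cy3 signal alone, leaving the reference out, 5567 of the 6271 higher calls (88.8%) and 5399 of the 6325 lower calls (85.4%) were called in the same direction. Cy3 alone called 43.7% of 42003 probes, 7592 higher and 10746 lower. Because Cy3 is part of the ratio, this overlap is not independent of it. The Cy3 step also had a Pearson r of 0.41 with the reference step over all tested probes. The reference itself was called lower for 196 of the higher calls (3.13%) and higher for 222 of the lower calls (3.51%). Over all 42003 probes it was called lower for 3788 and higher for 1018, and with median centring of Cy5 lower for 3672 and higher for 1155. This direction depended on the dim probes and on the processing. Among the 28033 probes left without those dim in Cy5, the reference was called lower for 166 and higher for 487. After normexp and quantile normalization of Cy5 it was called lower for 96 and higher for 475.

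**Figure D2:**
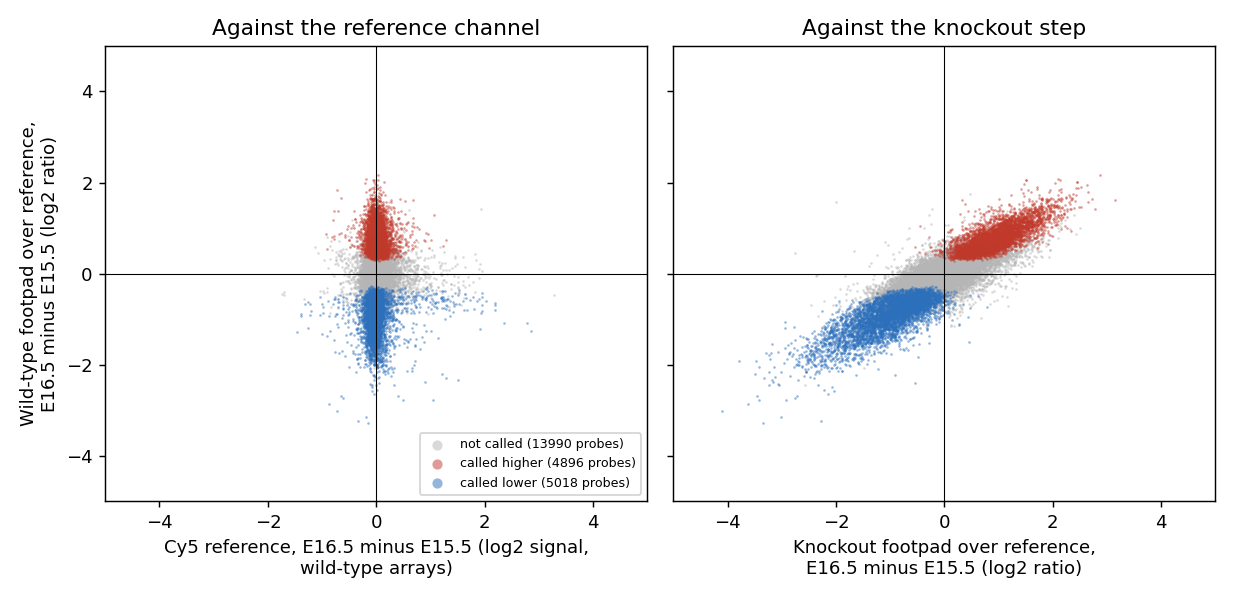
Each point is 1 of the 23904 probes well above background in both channels on all 4 wild type arrays; the y axis is the wild type step (log2 ratio, E16.5 minus E15.5), the x axis the step of the Cy5 reference (left, log2 signal) or of knockout footpads (right, log2 ratio). Called probes spread along the vertical axis at left, with most reference steps near 0, and along the diagonal at right.

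Overlapping probes gave a further view of the measurement error. Among probes with Cy3 well above background on all 4 arrays, 654 pairs, made of 1180 probes, shared at least 30 bases in a row. The steps of the members of a pair had a Pearson r of 0.96 (Spearman rho 0.95, both across pairs on the same 4 arrays), and their median absolute difference was 0.057. All 208 pairs with both members called had the same direction. Shared sequence means shared target and shared cross-hybridisation, so this describes the reading of the probes on these arrays and not the biological replicates.

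Of the 124 genes tied to a tested probe, 25 were called (20.2%, against 31.3% of all tested probes), 14 of them higher and 11 lower at E16.5. The median step of the 124 was 0.015, against 0.00 over all probes. The probes of 46 genes were well above background in Cy3 on all 4 arrays, and those of 49 genes on none. The rule for describing a gene in detail asked for a call, at least a 2-fold step, groups that do not overlap, and Cy3 well above background on both arrays of the higher group. It was met by 1644 probes that rose (4.09%) and 2086 that fell (5.19%), and among the named genes by 6 in each direction. Groups that do not overlap were found at 25825 of all tested probes (64.2%).

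The 6 genes that rose include enzymes of redox and sugar metabolism. Gstp1, a glutathione S-transferase that conjugates electrophiles, read -2.36 and -2.51 at E15.5 and -1.19 and -1.51 at E16.5. It rose 2.13-fold (step 1.09, SE 0.15, limma adjusted p = 0.00157), and both E16.5 arrays lay above both E15.5 arrays, as the rule required. Taldo1, the transaldolase of the pentose phosphate pathway, read -3.02 and -3.03 at E15.5 and -1.42 and -1.84 at E16.5. Its step was 1.39 (SE 0.23, 2.63-fold, limma adjusted p = 0.00363), but Cy3 was well above background on 1 of the 2 E15.5 arrays, and with normexp background correction and loess the step was 0.25 (adjusted p = 0.19).

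Fau encodes a ubiquitin-like protein fused to a protein of the small ribosomal subunit. Its probe read -1.60 and -1.76 at E15.5 and -0.37 and -0.61 at E16.5, and it rose 2.29-fold (step 1.19, SE 0.16, limma adjusted p = 0.00141). Cope, a subunit of the coatomer that coats vesicles between the Golgi and the endoplasmic reticulum, read -0.60 and -1.22 at E15.5 and 0.42 and 0.12 at E16.5. Its 2.26-fold rise (step 1.18, SE 0.25, limma adjusted p = 0.00917) was accompanied by the widest spread of an E15.5 pair among the 12 genes (SD 0.43), and the adjusted p was 0.059 without E15.5 replicate 2 and 0.060 without E16.5 replicate 1. The arrays did not overlap between stages for either gene, as the rule required.

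Mif, a cytokine that many epithelia store and release, read -1.19 and -1.12 at E15.5 and 0.06 and -0.30 at E16.5, a 2.05-fold rise (step 1.04, SE 0.29, limma adjusted p = 0.0295). H2ac18, a gene for core histone H2A, read -0.52 and -0.43 at E15.5 and 0.62 and 0.46 at E16.5, a 2.03-fold rise (step 1.02, SE 0.27, limma adjusted p = 0.0245). Both lost the call when single arrays were left out. For Mif the adjusted p was 0.10 without either E15.5 array and 0.15 without E16.5 replicate 1. For H2ac18 it lay between 0.062 and 0.11 without any 1 of the 4 arrays, and with normexp and loess its step was 0.45 (adjusted p = 0.0030). Fau, Mif, Gstp1 and the histone genes have close paralogs or processed copies, so part of their signal may come from those, which was not tested.

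The 6 genes that fell all read above 0 on both E15.5 arrays. Snrpf, the F protein of the Sm ring that holds spliceosomal small nuclear RNAs, read 2.41 and 2.35 at E15.5 and 1.00 and 0.60 at E16.5. It fell 3.00-fold (step -1.59, SE 0.14, limma adjusted p = 0.00040), and its ratio stayed above 0 on both E16.5 arrays. Sec61b, the beta subunit of the channel that passes new proteins into the endoplasmic reticulum, went from 2.10 and 2.17 to 0.90 and 0.57. This was a 2.64-fold fall (step -1.40, SE 0.13, limma adjusted p = 0.00042), and its E16.5 arrays too stayed above 0.

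Rps27l, a ribosomal protein paralog known as a p53 target, read 0.69 and 0.85 at E15.5 and -0.50 and -1.02 at E16.5. It fell 2.88-fold (step -1.53, SE 0.19, limma adjusted p = 0.00105), and its ratio passed from above to below 0. The histone H4 genes fell as well: H4c3 went from 2.23 and 2.22 to 1.01 and 1.00 (step -1.23, SE 0.26, limma adjusted p = 0.00897). H4c8 went from 0.11 and 0.01 to -1.09 and -0.89 (step -1.05, SE 0.15, limma adjusted p = 0.00165). Replication-dependent histone genes such as these are transcribed in S phase, and their coding sequences are nearly alike, so a probe may read more than 1 of them. Gm32950, a predicted gene of no known function, went from 1.87 and 1.92 to 0.08 and -0.68 (step -2.20, SE 0.41, limma adjusted p = 0.00572). Its Cy3 was well above background on 1 of the 2 E16.5 arrays, and the step with normexp and loess was -0.67.

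**Figure D3:**
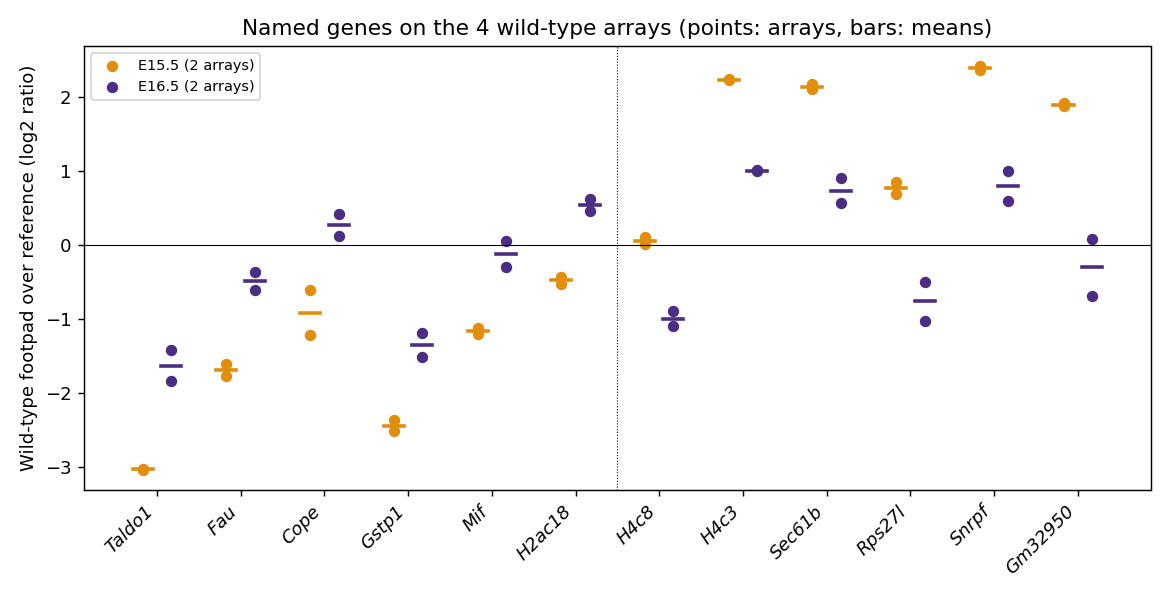
Log2 ratio of wild type footpad over reference for the 12 genes, with 1 point per array and bars at the means of the 2 arrays of E15.5 and of E16.5. The 6 genes left of the dotted line were higher at E16.5 and the 6 at its right lower. No pair of groups overlaps, which the rule for these genes required.

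Families within the 124 genes were looked at after their values had been seen. Histone genes did not move together: of 7, 3 were called higher (H2ac18, H3f3a and H2bc11) and 2 lower (H4c3 and H4c8), with a median step of 0.11. H3f3a, a replacement histone H3 gene, had a step of 0.65 (SE 0.18, limma adjusted p = 0.0305). H2bc11, for histone H2B, had a step of 0.52 (SE 0.12, limma adjusted p = 0.0133), while H2bc7, also for H2B, had a step of 0.11 (adjusted p = 0.85). Both calls were lost with normexp and loess, at steps of 0.15 and 0.17, and over all alternatives the call was kept in 5 of 11 for H3f3a and in 7 of 11 for H2bc11. The 4 ribosomal protein genes and relatives were also divided. Fau was called higher and Rps27l lower, while Rpl10a (step 0.50, limma adjusted p = 0.080) and Rpl26 (step 0.35, adjusted p = 0.34), both of the large subunit, were not called.

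The 19 olfactory receptor genes, which serve smell in the nasal epithelium, gave no call. The probes of 14 of them were not well above background in Cy3 on any of the 4 wild type arrays. Of 6 zinc finger protein genes, 1 was called, Zfp433, with a step of -0.91 (SE 0.20, limma adjusted p = 0.0102). Its step was -0.45 with normexp and loess, and 8 of 11 alternatives kept the call. The other called genes with Cy3 above background on all 4 arrays were Pitpnm2, Echs1 and the predicted gene Gm46340. Echs1, for the enoyl-CoA hydratase of mitochondrial fatty acid oxidation, had a step of -0.63 (SE 0.16, limma adjusted p = 0.0205), and the call was kept in 6 of 10 alternatives, with adjusted p up to 0.10. Gm46340 had a step of -0.50 (SE 0.12, limma adjusted p = 0.0167), kept in 5 of 11 alternatives, with adjusted p up to 0.17. Pitpnm2, for a phosphatidylinositol transfer protein, had a step of 0.86 (SE 0.23, limma adjusted p = 0.0248), but the reference was itself called higher at this probe, by 0.96 (adjusted p = 0.0168). Its step was 1.84 in Cy3 alone, the alternatives ran from 0.54 to 1.84, and 7 of 10 kept the call. Uty, a Y-linked histone demethylase gene, had the lowest step of all named genes, -2.52 (SE 0.83, limma adjusted p = 0.051), and was not called. Its arrays read 1.82 and 1.56 at E15.5 and 0.36 and -2.02 at E16.5, so the spread lay in the E16.5 pair. Cy3 was well above background on 1 of the 2 arrays of each stage, and Cy5 on 0 at E15.5 and 2 at E16.5. The reference step at this probe was 0.92 (limma adjusted p = 0.075). With normexp and loess the ratio step was -0.38 (limma adjusted p = 0.034).

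A probe of the late cornified envelope genes was singled out after its values were seen, since these genes belong to the barrier of the outer epidermis. It fitted Lce1c, Lce1h, Lce1i and Lce1j alike, so it is given for the 4 together. The ratio was high at both stages, 3.39 and 3.62 at E15.5 and 2.99 and 3.00 at E16.5, a step of -0.51 (SE 0.14, limma adjusted p = 0.0248). In Cy3 alone the step had the opposite sign, 0.73 (adjusted p = 0.16), and the reference rose by 1.23 at this probe (adjusted p = 0.071). No direction is therefore given for these genes.

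The probes with the largest steps carry no gene. Those that met the same rule are printed here by code and sequence, because they can be traced by sequence, with the polyadenylation signal AATAAA in capitals where it occurs. The first 2 rose and the other 2 fell.
Z00038056-1: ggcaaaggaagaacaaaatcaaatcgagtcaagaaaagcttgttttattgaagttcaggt
Z00057875-1: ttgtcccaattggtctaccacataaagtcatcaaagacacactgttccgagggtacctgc
Z00026395-1: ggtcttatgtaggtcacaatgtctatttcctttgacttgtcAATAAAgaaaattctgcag
Z00037910-1: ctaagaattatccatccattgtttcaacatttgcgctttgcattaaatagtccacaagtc

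All 4 of these probes had a reference channel that was not well above background on any of the 4 arrays, so their ratios rest on a floor in Cy5. Z00038056-1 read 1.58 and 0.00 at E15.5, where Cy3 was not well above background, and 4.93 and 4.70 at E16.5. Z00057875-1 read 1.49 and 0.00 at E15.5, also not well above background, and 5.003 and 4.461 at E16.5. Each 0.00, on E15.5 replicate 2, is a ratio listed as exactly 0 with neither channel well above background, and not a measured ratio. It was fitted as a value, so the steps and adjusted p of Z00038056-1 and Z00057875-1 rest in part on it. Without that array their steps were 3.23 and 3.24. Bounded against the lowest signal well above background on each E15.5 array, after loess and Aquantile normalization per channel, the 2 probes were at least 1.19-fold and at least 1.20-fold higher at E16.5. The adjusted p in the limma fit of the ratio was 0.00095 and 0.00106. Such bounds come from single channels and are open to dye bias, since dyes were not swapped. At Z00038056-1 and Z00057875-1 the reference was itself called lower at E16.5, with steps of -1.35 and -1.34 (limma adjusted p = 0.0168 for each). With normexp and loess the ratio steps of these probes were 0.36 and 0.39, against 4.03 and 3.99 in the deposited ratio. The constant of 50 in normexp draws such dim ratios toward 0.

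Z00026395-1 read 6.67 and 6.00 at E15.5 and 3.93 and 1.48 at E16.5, with Cy3 well above background on 1 of the 2 E16.5 arrays. Its step was -3.63 (SE 0.73, limma adjusted p = 0.00757), and -2.13 with normexp and loess. Fitted on the 4 wild type arrays alone it was not called (adjusted p = 0.059). The step was -4.86 without E16.5 replicate 1 and -2.41 without E16.5 replicate 2. At this probe the reference was itself called lower at E16.5 (step -0.95, limma adjusted p = 0.0214). Z00037910-1 read 3.98 and 3.73 at E15.5 and 0.21 and 0.44 at E16.5, where it was not well above background. It was at least 1.41-fold lower at E16.5 by the same bound (limma adjusted p = 0.00086 for the ratio). Its ratio step was -3.53, and -0.71 with normexp and loess.

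Where both channels were well above background on all 4 arrays, the ratios were measured at both stages. This restriction was chosen after the values were seen. The 2 probes that rose most and the 2 that fell most under the same rule were these.
Z00039497-1: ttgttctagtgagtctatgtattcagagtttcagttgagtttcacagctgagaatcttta
Z00027813-1: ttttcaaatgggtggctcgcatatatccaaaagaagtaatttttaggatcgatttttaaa
Z00060830-1: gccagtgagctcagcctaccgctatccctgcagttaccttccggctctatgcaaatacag
Z00048455-1: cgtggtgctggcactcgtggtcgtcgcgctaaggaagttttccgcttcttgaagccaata

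Z00039497-1 went from 0.54 and -0.26 to 2.41 and 2.18, a 4.47-fold rise (step 2.16, SE 0.28, limma adjusted p = 0.00128). Z00027813-1 went from -0.26 and -0.54 to 1.73 and 1.63, a 4.22-fold rise (step 2.08, SE 0.14, limma adjusted p = 0.00027). With normexp and loess their steps were 1.43 and 1.14. Z00060830-1 went from 4.50 and 4.33 to 1.46 and 0.82, a 9.67-fold fall (step -3.27, SE 0.32, limma adjusted p = 0.00051), and its step was -3.32 with normexp and loess.

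Z00048455-1 went from 3.45 and 3.92 to 0.96 and -0.07, a 9.46-fold fall (step -3.24, SE 0.89, limma adjusted p = 0.0264). Its call was lost whichever 1 of the 4 wild type arrays was left out, with the adjusted p at 0.067 without E15.5 replicate 1, 0.12 without E15.5 replicate 2, 0.058 without E16.5 replicate 1 and 0.12 without E16.5 replicate 2. Reference steps were within 0.35 of 0 for all 4 probes, and none was called.

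Knockout footpads sat on the same slides, on arrays of their own. In them 17693 of the 40221 probes (44%) were called between E15.5 and E16.5. Of the probes called higher in wild type, 5399 were called higher in the knockout as well, which is 86.1% of the wild type calls and 58.0% of the knockout calls. For lower calls the number was 5074, or 80.2% and 60.5%. Opposite calls were made for 11 and 25 probes. Across probes the wild type and knockout steps had a Pearson r of 0.78. The Cy5 reference steps of the same arrays, which hold no footpad RNA, had an r of 0.74. That r is of a single channel and not of a ratio, over all 42003 probes, dim ones included. The part of the slides in the steps shared by the genotypes was not tested.

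The difference between the wild type and knockout steps was called by limma for 0 of the 40221 probes (0%), while 4933 had a p under 0.05 before adjustment. Other settings called 3 probes with median centring, 3 with Cy3 alone and 2 in the authors' deposited series table. Leaving out single arrays gave between 0 and 46. A p that misses the threshold does not show that the steps of a probe were alike.

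The 12 genes moved the same way in both genotypes. The knockout step was 1.20 for Gstp1, 1.63 for Taldo1, 1.22 for Fau and 1.70 for Cope, each called, with adjusted p between 0.00055 and 0.00109. It was 0.90 for H2ac18 (limma adjusted p = 0.029) and 0.57 for Mif, which was not called (adjusted p = 0.15). Of the 6 genes lower in wild type all were called lower in the knockout, with steps of -2.37 for Snrpf, -2.08 for Rps27l, -2.05 for Sec61b, -2.03 for H4c3, -1.37 for H4c8 and -2.08 for Gm32950. The wild type step minus the knockout step was 0.78 for Snrpf (SE 0.20, unadjusted p = 0.0041 and adjusted p = 0.26 in limma) and 0.65 for Sec61b (SE 0.18, unadjusted p = 0.0070, adjusted p = 0.28). For the other 10 genes the unadjusted p was 0.058 or more.

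**Figure D4:**
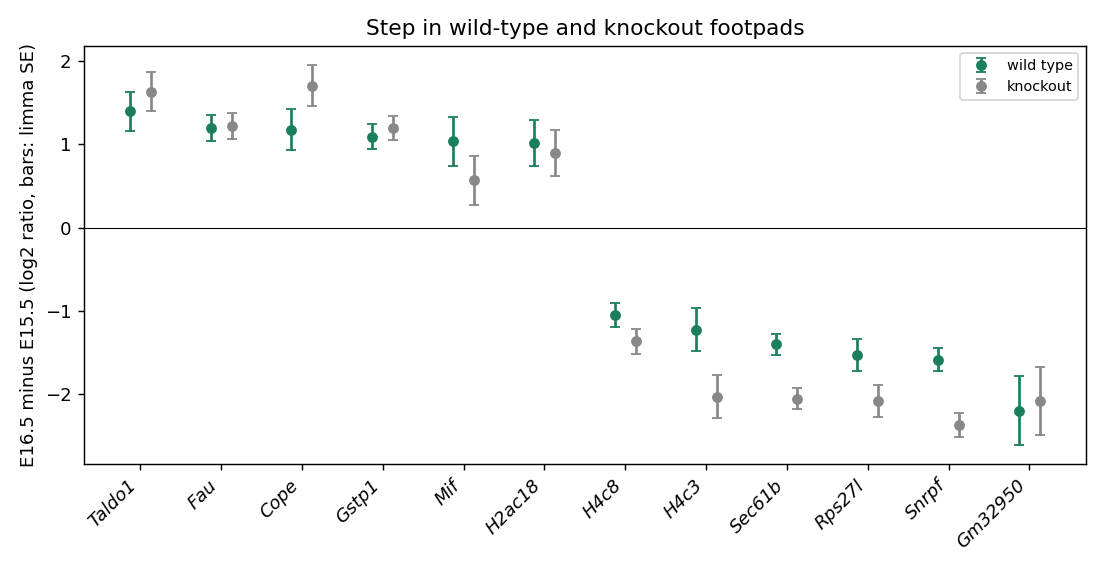
Step from E15.5 to E16.5 (log2 ratio) of the 12 genes in wild type and in knockout footpads, with limma standard errors as bars. Every gene keeps its sign in both genotypes, and for Snrpf the knockout step of -2.37 lies below the wild type step of -1.59.

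The following day, from E16.5 to E17.5, shares the E16.5 arrays with the step described above, so its values are given only side by side. In wild type footpads Snrpf had a further difference of -0.34 and Sec61b of -0.48, and Gstp1 and Mif had differences of -0.31 and -0.19. Fau was at -0.03, Cope at 0.43 and H2ac18 at 0.08. None of the 12 genes was called between E16.5 and E17.5, and the lowest adjusted p was 0.099, for Sec61b.

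Called probes differed in base composition. Among the 24780 probes with Cy3 well above background on all 4 arrays, the share called lower at E16.5 fell steadily with the share of G and C bases. It was 27.1% for the 3850 probes with at most 35% G and C, 22.7% for the 7427 probes with over 40 and up to 45%, 14.9% for the 2045 probes with over 50 and up to 55%, and 8.81% for the 1044 probes with over 60%. The share called higher stayed between 18.8% and 21.4% over all 7 ranges. The percentile 10 of the steps was -1.05 in the range poorest in G and C and -0.52 in the richest, while the percentile 90 was 0.77 and 0.82.

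The same order for lower calls was seen with normexp and loess (34.3% to 12.5%) and with Cy3 alone (26.6% to 9.67%). The median reference step was 0.006 in the range poorest in G and C and -0.019 in the richest, and between 3.58% and 5.53% of probes were called in the reference in each range. In the knockout the share called lower went from 28.8% to 24.0% over the same ranges and the share called higher from 29.8% to 20.6%. The difference between genotypes in this pattern was not tested. Probes of unlike base composition also differ in brightness and position in their transcripts, whose part in the pattern was not tested.

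**Figure D5:**
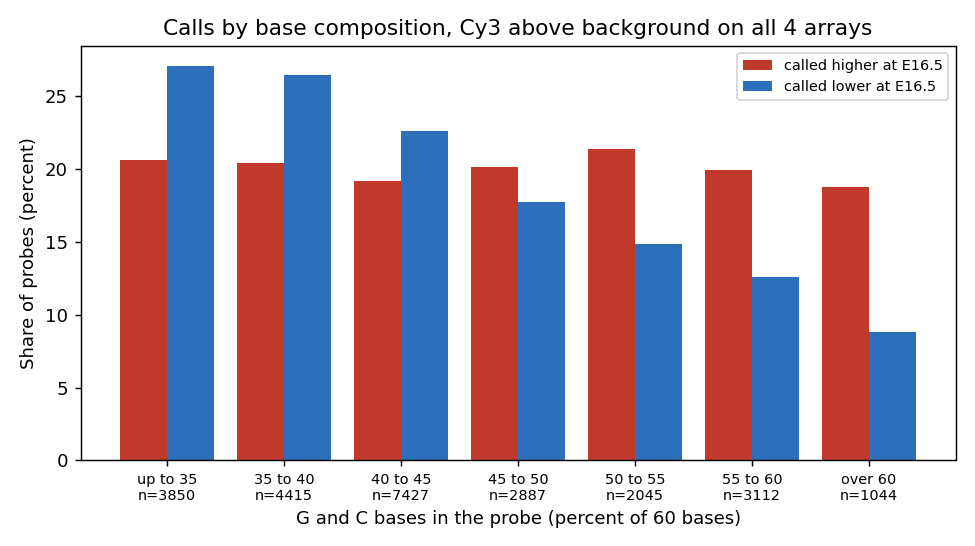
Share of probes called higher and called lower at E16.5 in wild type footpads, in 7 ranges of the share of G and C bases in the probe, with the number of probes under each range. The share called lower drops from 27.1% to 8.81% from left to right, and the share called higher stays between 18.8% and 21.4%.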

How the data were processed

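Deposited Agilent array files of mouse footpad skin were used. Per the file headers, spots were read by Agilent Feature Extraction 9.5.1.1, which gives spot intensity and a log10 ratio of Cy5 over Cy3. The deposited log10 ratio was sign-flipped and rescaled to log2 (footpad over reference), with the mean taken over repeated spots. The authors' deposited series table holds values whose differences correlated between 0.899 and 0.993 with those of the log2 ratios. Its medians lay between 2.556 and 2.588 on the log10 scale, and no source used here gives its centring. Its 25030 probes served as an alternative, in which 23558 were tested.

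Of 43451 spots per array, 1417 control spots were left out. Ratios of exactly 0 were listed for 9.35% to 16.9% of probes on the 4 wild type arrays. Of the probes, 1785 without spread or value were dropped, which left 40221. limma 3.58.1 (R 4.3.3) was fitted on the 6 group means of all 12 arrays, with Benjamini-Hochberg adjustment. The number of arrays limits the precision. Self-tests on simulated data were run. Replicate numbers did not pair the arrays.

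The rule for named genes took up to 15 genes per direction, 1 probe each, at adjusted p under 0.05 and at least 2-fold, with groups apart and Cy3 well above background on both arrays of the higher group, and of probes with no gene 2 per direction. Up to 5 genes per direction were to be named for the difference between genotypes, and none passed. The match to transcription starts was chosen after the files were read. The samples, lists and rules were chosen with earlier results of these data known.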

Additional observations from a re-analysis of the deposited data

Results flagged for a closer look

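Among named genes with Cy3 well above background on all 4 wild type arrays, 4 had both wild type E16.5 arrays above both E15.5 arrays and both knockout E16.5 arrays below both knockout E15.5 arrays. They are 8.70% of the 46 such genes, and the same pattern was found at 253 of the 24780 probes with Cy3 above background on all 4 arrays (1.02%). The mirror pattern, lower in wild type and higher in the knockout, was found at 203 of these probes (0.819%). The wild type step minus the knockout step was 0.65 for H2bc11, 0.73 for Pla2g2d, 0.74 for Gm33611 and 0.66 for Slc25a5. In the limma fit of this difference the adjusted p lay between 0.21 and 0.28, so none passed. The genes were picked for this pattern, so their differences are a description. H2bc11, for histone H2B, had a wild type step of 0.52, which was called, and a knockout step of -0.13, which was not (limma adjusted p = 0.41). Pla2g2d, for a secreted phospholipase, had steps of 0.32 and -0.41. Gm33611, a predicted gene, had 0.31 and -0.43, and Slc25a5, for a mitochondrial ADP/ATP carrier, had 0.24 and -0.41. For Pla2g2d, Gm33611 and Slc25a5 the knockout step was called (limma adjusted p between 0.015 and 0.030). Their wild type steps were not called (limma adjusted p between 0.064 and 0.19).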

How the results depend on the processing

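The direction of the 12 named genes and 8 named probes held in each alternative in which they could be fitted: of 208 such values, 192 kept the call and 16 lost it. The count of 12596 wild type calls became 6454 with the 4 wild type arrays alone and ran from 6830 to 10220 when 1 wild type array was left out; restricted to probes above background in both channels it was 11993. The knockout count of 17693 became 11045 in the authors' series table, which holds fewer probes. The genotype difference, with 0 calls, gave 3 with median centring, 3 with Cy3 alone, 2 in the series table and 0 to 46 without single arrays. The reference count of 4806 became 571 after normexp and quantile normalization and 653 without dim probes; the cause was not tested. Replicate numbers did not pair the arrays (correlation of deviations 0.025), and a replicate block gave 12422 wild type calls. The slide as a block could not be fitted, since each slide holds 1 stage, and the gene list alternatives were not run, since 1 list gene was tied to a probe. A lone array left in a group was assumed to vary like the other groups. Signal over background limits the dim probes: Cy3 was well above background on none of the 4 arrays for 10041 tested probes.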
